A study of Homo sapiens with 32 samples.

Results

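RO4929097, a small molecule that inhibits gamma-secretase (GSI), was set against vehicle in A549 cells after 24 h. The comparison holds the 4 arrays titled as RO4929097 and the 4 titled as vehicle for this line and time, 8 of the 32 arrays of the series, and 19775 genes were tested. A549 is an established human line derived from a lung adenocarcinoma. GSI was given at 2 µM to cells that had rested overnight after plating. The 4 GSI groups and 4 vehicle groups of the series cover A549 and H460a, a line from a large cell lung carcinoma, at 6 and 24 h with 4 arrays each. No group carried another agent or a genetic change made for the study, the composition of the vehicle was not given in the labels, and each group is 1 line in culture. Nothing in the labels ties the replicates to separate cultures, and the p-values then rest on a spread between arrays that may be technical only.

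Gamma-secretase is a membrane protease that cuts type I membrane proteins within the membrane after their outer part has been shed. Cleavage of a ligand-bound Notch receptor frees its intracellular domain, which joins the DNA-binding protein RBPJ in the nucleus and activates genes such as the HES and HEY repressors. TGF-beta, the other pathway that recurs below, acts through receptor kinases and SMAD proteins and is known in lung carcinoma lines for raising matrix and Snail family genes. Sterol enzymes are controlled by the SREBP factors, which INSIG proteins hold in the endoplasmic reticulum (ER). These sentences are background and not results of these arrays.

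After 24 h with GSI, some Notch and TGF-beta response genes were lower, 7 of 25 and 9 of 27 measured, among them HES1, PMEPA1 and SMAD7. The largest rises were those of the membrane protein gene TM4SF20, the airway secretory gene BPIFA1, the retinol carrier gene RBP4 and the mucus protein gene FCGBP, and most members of the secretory, transport and lipid lists did not pass. Of 19775 genes, 437 (2.21%) passed the threshold of adjusted p under 0.05 (limma with Benjamini-Hochberg adjustment), 262 higher (1.32%) and 175 lower (0.885%) with GSI. Changes were small. The median rise was 0.38 on the log2 scale, 1.30 times the vehicle level, and the median fall was -0.44, 0.737 times the vehicle level. A difference of at least 0.58 was reached by 64 of the called genes (0.324% of all tested), 24 higher and 40 lower, so falls outnumbered rises among large changes while rises were more frequent among small ones. In 418 of the 437 the 4 GSI arrays all lay on one side of the 4 vehicle arrays. Over all genes, such arrays without overlap were found for 7.1% in the higher and 5.14% in the lower direction. Levels below are log2 intensities of 1 probe set per gene, differences are GSI minus vehicle on that scale ± the standard error from limma, and n is 4 arrays per group.

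**Figure D1:**
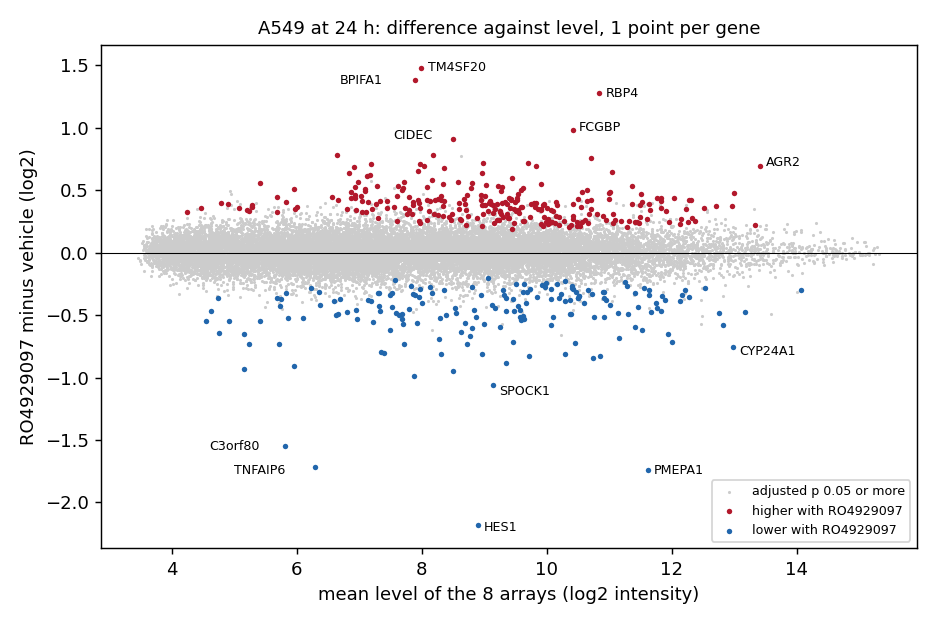
Each point is 1 of 19775 genes in A549 at 24 h, with the mean log2 intensity of the 8 arrays across and the GSI (RO4929097) minus vehicle difference upward, red for the 262 genes past the threshold and higher and blue for the 175 past and lower. The falls reach -2.18 (HES1) and the rises 1.48 (TM4SF20), and most coloured points lie within 0.58 of 0.

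The 8 arrays had mean intensities of 584 to 602 and log2 ratios of the 3' to the 5' probe sets of actin of 0.19 to 0.24, with GSI and vehicle ranges that overlap, and between any pair of them the correlation over genes was 0.996 to 0.998. A further 4 arrays of the series stood apart. Of these 3 were of A549 with GSI at 6 h, with mean intensities of 531 to 589 against 468 to 496 on the other 5 arrays of that line and time, which in turn lay below the 570.2 to 613 of the other 24 arrays. The fourth, of H460a with vehicle at 6 h, had an actin ratio of 2.19. They do not enter the means here but share in the pooled variance, and without them 672 genes passed in place of 437. The epithelial marker list (11 measured) was summed to 15.90 to 15.95 with GSI and 15.86 to 15.90 with vehicle, led by KRT18, with 1 member past the threshold, KRT19. Of 8 defining alveolar type II markers, the cell type A549 is used to model, 2 lay at or above the level of the median gene (7.60), the highest being ABCA3 at 9.03 with vehicle. No member of the shorter alveolar type II (8), fibroblast (9), leukocyte (8) or endothelial (7) marker lists passed, and their summed levels overlapped between GSI and vehicle.

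HES1, the transcriptional repressor that is the best-known Notch target, had 7.64, 7.74, 7.90 and 7.93 with GSI, against 9.82, 9.98, 10.09 and 10.05 with vehicle. The lowest vehicle array was 1.89 above the highest GSI array. HES1 fell by 2.18 ± 0.13 (adjusted p = 1.29e-13), to 0.22 times the vehicle level. In a bulk lysate, fewer cells with a transcript and less of it per cell cannot be told apart, here and below. Of the 3 probe sets of HES1, 2 were lower and 1 of low level differed by 0.10. HEY1, a related repressor, had 7.01, 7.36, 7.25 and 7.12 with GSI, against 7.82, 7.78, 7.84 and 7.78 with vehicle. All GSI arrays were lower, and HEY1 fell by 0.62 ± 0.078 (adjusted p = 2.8e-06). HES4, another member of the family, had 8.04, 8.17, 8.06 and 8.27 with GSI, against 8.48, 8.65, 8.74 and 8.66 with vehicle, again without overlap, and fell by 0.50 ± 0.10 (adjusted p = 0.00381).

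Upstream bases of HES1 and HES4 are shown because these repressors are direct targets of the RBPJ complex in general knowledge and fell here, with TGGGAA, the core letters RBPJ binds, in capitals. They are the 250 bases before the annotated gene start, 5′ to 3′ on the gene's strand, from RefSeq on GRCh38.p14, for HES1 at chr3:194135898-194136147 (plus strand) and for HES4 at chr1:1000098-1000347 (minus strand).
HES1: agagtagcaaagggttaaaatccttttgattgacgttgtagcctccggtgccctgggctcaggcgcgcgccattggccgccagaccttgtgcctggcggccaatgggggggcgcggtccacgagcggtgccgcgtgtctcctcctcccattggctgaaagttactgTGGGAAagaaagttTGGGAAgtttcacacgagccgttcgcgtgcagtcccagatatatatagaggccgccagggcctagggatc
HES4: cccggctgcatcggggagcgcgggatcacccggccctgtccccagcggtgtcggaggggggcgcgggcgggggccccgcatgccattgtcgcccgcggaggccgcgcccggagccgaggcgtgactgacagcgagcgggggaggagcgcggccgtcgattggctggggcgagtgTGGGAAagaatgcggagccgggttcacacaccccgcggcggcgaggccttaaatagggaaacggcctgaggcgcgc
In HES1 the letters occur 2 times, starting 84 and 70 bases before the gene start, and in HES4 once, starting 76 bases before it. Searched on both strands, TGGGAA was in 20.8% of all 35116 promoters of the table and in 25.0% of tested genes that have one. Among Notch target genes with a promoter it was found in 6 of 19. Of the 5 that fell and have one, the 2 with it are HES1 and HES4 themselves. The match is a description of letters and not of binding.

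Of the 25 Notch target genes measured, 7 fell and 1 rose (28% and 4%, against 0.885% and 1.32% over all genes). The median of the list, -0.0054, was near that of all genes, 0.0070. All lists were chosen with earlier results of these data known, so the shares here and below are descriptions, not independent tests. Beside HES1, HEY1 and HES4 the genes that fell were SNAI2, SAT1, TNFRSF19 and ADAM19. SNAI2, the gene of the E-cadherin repressor Slug, had 5.54, 5.58, 5.54 and 5.35 with GSI, against 6.25, 6.51, 6.57 and 6.30 with vehicle. Its level was low in both groups and the arrays did not overlap, and SNAI2 fell by 0.91 ± 0.13. SAT1, the enzyme that acetylates spermidine and spermine for breakdown, fell by 0.47 ± 0.096 at a high level (12.93 ± 0.020 with GSI and 13.40 ± 0.049 with vehicle, SD). TNFRSF19, a TNF receptor family member, fell by 0.46 ± 0.12 with overlapping arrays, and the metalloprotease gene ADAM19 fell by 0.36 ± 0.089. BCL6, a repressor named here after its value was seen as the 1 list member that rose, rose by 0.28. NRARP, a Notch-induced inhibitor of Notch, differed by 0.19 ± 0.067 (adjusted p = 0.172), HEYL by 0.10 ± 0.11, MYC by -0.10 ± 0.063 and CCND1 by 0.053 ± 0.079, and SOX9, nearest to the threshold of the rest, by 0.21 ± 0.067, none of them past it.

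Among Notch receptors, ligands and cofactors, 1 of 30 fell and none rose. This was JAG2, a Notch ligand, at 7.99 ± 0.11 with GSI and 8.32 ± 0.053 with vehicle, SD (difference -0.33 ± 0.060, adjusted p = 0.000961). The ligand gene JAG1 differed by -0.18 ± 0.10, the receptor genes NOTCH1 by -0.067 ± 0.083, NOTCH2 by -0.11 ± 0.077 and NOTCH3 by 0.038 ± 0.079, and the coactivator gene MAML3 by -0.25 ± 0.096, none past the threshold. None of the 15 subunits of gamma-secretase and sheddases passed. Of the complex itself, PSEN2 (a catalytic presenilin) differed by 0.081 ± 0.076, NCSTN by 0.12 ± 0.057, APH1A by -0.014 ± 0.13, APH1B by 0.22 ± 0.072 and PSENEN by -0.11 ± 0.24. The PSENEN estimate has an error more than 2 times the median standard error of 0.087. Of 35 genes whose proteins are cut by gamma-secretase, 2 rose and 2 fell. IL6R, a receptor chain for IL-6, rose by 0.45 ± 0.099 and the membrane-bound chemokine CXCL16 by 0.40 ± 0.085, while TGFBR1 and the ERBB ligand gene NRG1 fell. IL6R did not pass with the mean of its probe sets or with its probe set of largest interquartile range.

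The TGF-beta pathway held the list with the largest share of called members. Of 27 SMAD regulators and immediate TGF-beta targets, 9 fell and none rose (33.3%, against 0.885% lower over all genes), and the median member differed by -0.18, with 23 of 27 below 0. PMEPA1, a membrane protein that TGF-beta induces and that holds SMADs back, had 10.66, 10.85, 10.73 and 10.75 with GSI, against 12.44, 12.60, 12.50 and 12.42 with vehicle. PMEPA1 fell by 1.74 ± 0.074 (adjusted p = 2.19e-17, to 0.299 times vehicle) and is abundant in vehicle, and all 3 of its probe sets were lower. SMAD7, the inhibitory SMAD that forms the feedback loop of the pathway, had 8.32, 8.13, 8.53 and 8.45 with GSI, against 9.12, 8.84, 9.11 and 9.29 with vehicle. The GSI arrays were all below the vehicle arrays, and SMAD7 fell by 0.73 ± 0.14. SKIL, a corepressor that binds SMADs, fell by 0.62 ± 0.14 with 5 of 5 probe sets lower. SMAD3, the receptor-activated SMAD, named after its value was seen as the ninth of these genes, fell by 0.30.

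The early targets in this list included transcription factors. KLF10, a zinc finger repressor first known as TGF-beta inducible, had 10.38, 10.52, 10.50 and 10.38 with GSI, against 11.21, 11.34, 11.25 and 11.29 with vehicle. JUNB, an AP-1 subunit, had 9.86, 9.91, 9.88 and 9.89 with GSI, against 10.60, 10.81, 10.72 and 10.65 with vehicle. Neither overlapped, and they fell by 0.83 ± 0.10 and 0.81 ± 0.066. ANGPTL4, a secreted inhibitor of lipoprotein lipase, fell by 0.53 ± 0.080, the clock and hypoxia repressor BHLHE40 by 0.34 ± 0.083 and TGFBI, a secreted matrix protein among the most abundant transcripts at 13.92 ± 0.050 with GSI and 14.22 ± 0.019 with vehicle, SD, by 0.30 ± 0.064. Others of the list did not pass: SMAD9 differed by 0.31 ± 0.099 and PDLIM7 by -0.44 ± 0.13.

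Of 36 ligands and receptors of the TGF-beta family, 5 fell and none rose (13.9%), against 8 and 2 after quantile normalization of all arrays, and 6 and 3 with the 8 arrays of the comparison alone. TGFBR1, the type I receptor kinase for TGF-beta, had 10.41, 10.29, 10.42 and 10.18 with GSI, against 11.11, 11.24, 11.22 and 11.09 with vehicle. The highest GSI array was 0.68 below the lowest vehicle array, and TGFBR1 fell by 0.84 ± 0.086 (adjusted p = 7.06e-08) with 3 of 3 probe sets lower. BMP6, a BMP ligand, fell by 0.69 ± 0.062 (adjusted p = 3.51e-09), BMP2 by 0.48 ± 0.12 and the type I receptor gene ACVR1 by 0.29 ± 0.082 (adjusted p = 0.0496, at the threshold). FSTL1, a secreted modulator of BMP signalling, fell by 0.27 ± 0.063 and did not pass with the mean of its probe sets. GDF15, nearest to the threshold of the others, differed by 0.33 ± 0.094. Of 12 ID inhibitors and BMP targets, ID2 fell by 0.60 ± 0.085 and ID3 by 0.49 ± 0.066. ID proteins block basic helix-loop-helix factors, and both genes were abundant (11.11 ± 0.067 with GSI and 11.71 ± 0.084 with vehicle, SD for ID2).

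**Figure D2:**
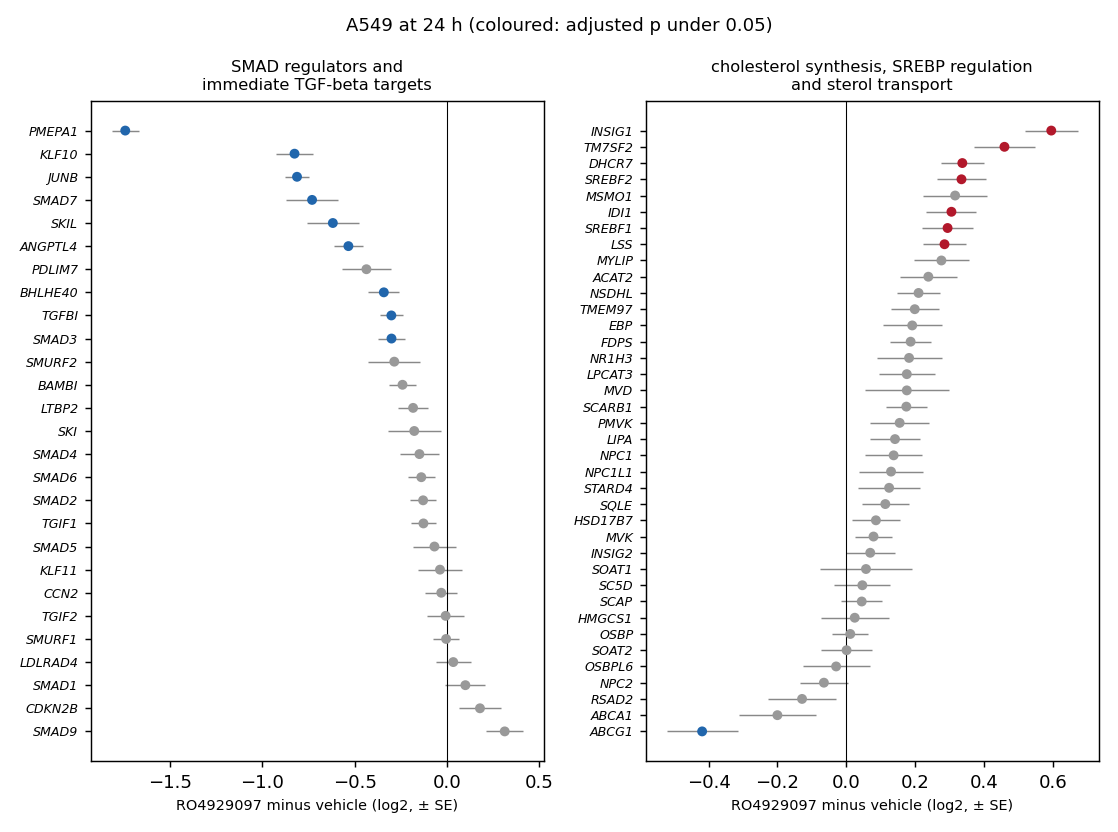
Every measured member of the list of SMAD regulators and immediate TGF-beta targets (left, 27 genes) and of the joined lists of cholesterol synthesis, SREBP regulation and sterol transport (right) is plotted with its GSI (RO4929097) minus vehicle difference in log2 units in A549 at 24 h, bars being the standard error from limma and colour marking adjusted p under 0.05. On the left 9 genes passed, all to the left of 0, and on the right 7 passed to the right of 0 and ABCG1 to the left.

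**Figure D3:**
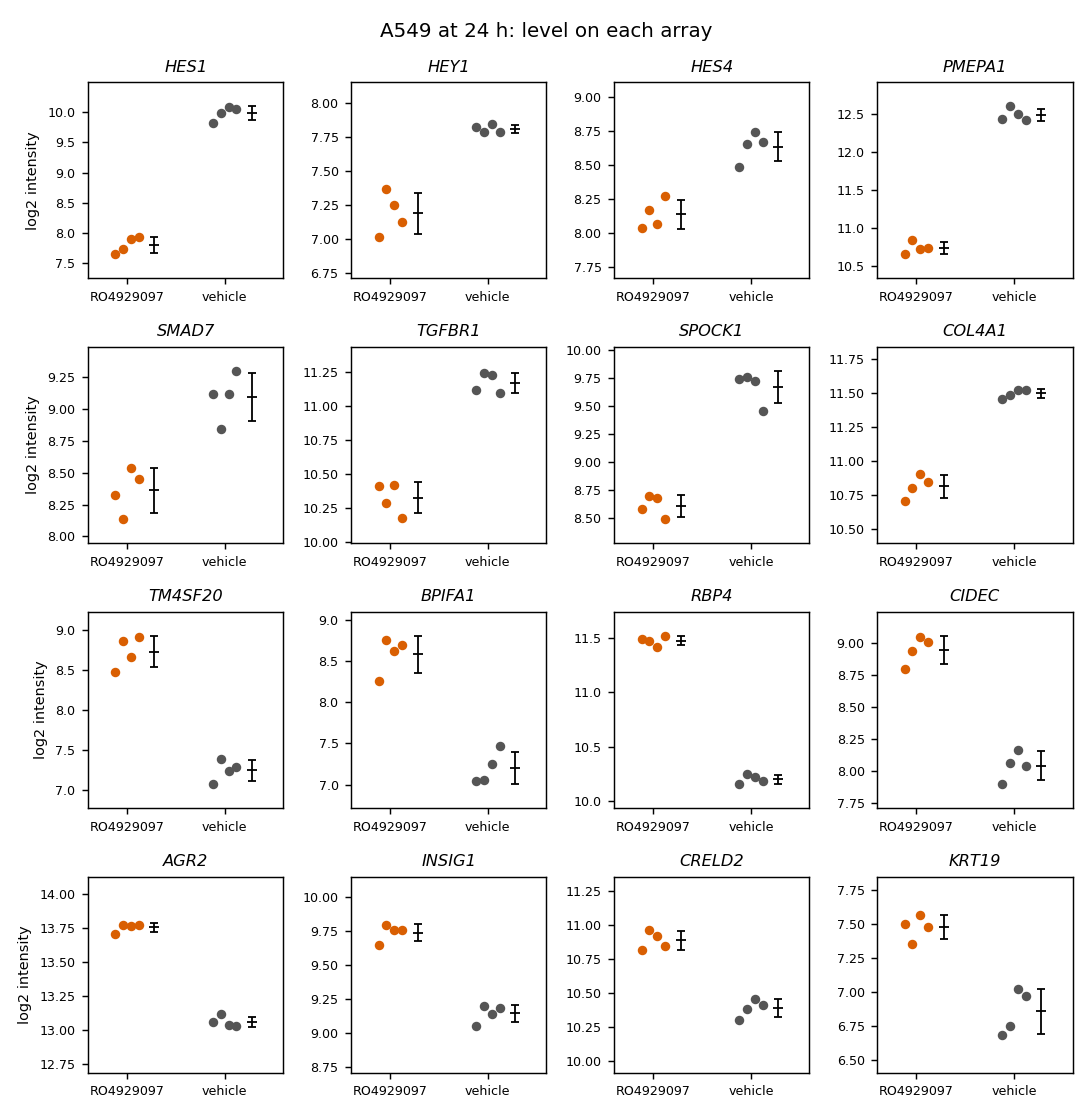
Log2 intensity on each of the 4 GSI (RO4929097) and 4 vehicle arrays of A549 at 24 h for 16 genes, points being arrays and bars the mean and SD. The 8 genes of the upper 2 rows had all GSI arrays below all vehicle arrays, and the 8 genes of the lower 2 rows had all GSI arrays above.

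Genes of the extracellular matrix and its turnover were among the largest falls. TNFAIP6, a secreted hyaluronan-binding protein, had 5.50, 5.40, 5.48 and 5.35 with GSI, against 7.18, 7.11, 7.30 and 7.02 with vehicle. It fell by 1.72 ± 0.11 (adjusted p = 3.16e-13) with no overlap, although the GSI level is low, and it was the 1 of 30 hyaluronan and proteoglycan genes past the threshold. SPOCK1, a matricellular proteoglycan, had 8.58, 8.70, 8.68 and 8.49 with GSI, against 9.74, 9.76, 9.72 and 9.46 with vehicle. It fell by 1.06 ± 0.078. Of 28 matricellular genes 3 fell, the others being TGFBI and IGFBP7, a secreted IGF-binding protein (-0.49 ± 0.079). Of 29 collagen genes in the list 4 fell and none rose. COL21A1, a collagen gene that the list does not hold, also fell and is given below with the genes outside the lists. COL4A1, a chain of the basement membrane network, had 10.70, 10.80, 10.91 and 10.84 with GSI, against 11.45, 11.49, 11.52 and 11.52 with vehicle. Its partner chain COL4A2 fell by 0.38 ± 0.082, the fibrillar chain COL5A1 by 0.81 ± 0.099 with 3 of 3 probe sets lower, and COL15A1 by 0.55 ± 0.14 at a low level (4.27 ± 0.11 with GSI and 4.82 ± 0.063 with vehicle, SD). COL7A1 differed by -0.29 ± 0.11 and did not pass. P4HA3, a collagen prolyl hydroxylase subunit, was the 1 of 19 processing genes that fell, by 0.47 ± 0.072, whereas none of 20 laminin and basement membrane genes passed.

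Of 31 matrix proteases and inhibitors 4 fell and 1 rose. MMP7, a matrix metalloprotease, fell by 0.53 ± 0.11 with overlapping arrays, the protease inhibitor gene SERPINE2 by 0.34 ± 0.071 (its second probe set was higher) and PLAU, the urokinase gene, by 0.25 ± 0.067. PLAU did not pass under 10 of 21 alternatives, among them the fit of the comparison's own arrays alone. CTSD, a lysosomal protease, rose by 0.48 ± 0.12. In the list of other serpins and protease inhibitors (27 genes), TFPI2 fell by 0.71 ± 0.075 at an abundant level (11.64 ± 0.033 with GSI and 12.35 ± 0.043 with vehicle, SD). SERPINB9 fell by 0.32 ± 0.085, but did not pass under 11 of 21 alternatives, with values up to -0.059. SERPINF1, the gene of the antiangiogenic factor PEDF, rose by 0.66 ± 0.12, SERPINI1 by 0.55 ± 0.13 and SLPI, an airway antiprotease, by 0.41 ± 0.079.

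Adhesion and cytoskeletal genes moved in few cases. Of 31 integrin genes and partners, ITGA2, the collagen-binding alpha 2 chain, fell by 0.49 ± 0.087 and the kindlin gene FERMT1 by 0.40 ± 0.067. TPM1, a tropomyosin, fell by 0.58 ± 0.092 with 5 of 6 probe sets lower, and MYLK, the myosin light chain kinase gene, rose by 0.42 ± 0.10 with overlapping arrays, out of 36 contractile and cytoskeletal genes. None of 33 cadherin, catenin and desmosome genes and none of 35 tight junction and polarity genes passed. CDH1, which encodes E-cadherin, differed by 0.19 ± 0.089 (adjusted p = 0.375), and VIM, vimentin, by -0.074 ± 0.065 (adjusted p = 0.748). Of 22 genes of the Snail, ZEB and TWIST list, 1 passed, SNAI2, and SNAI1 differed by -0.26 ± 0.084. Of 26 keratins, plakins and intermediate filament genes, 2 rose. PPL, periplakin, rose by 0.72 ± 0.12 and the simple epithelial keratin gene KRT19 had 7.50, 7.36, 7.57 and 7.48 with GSI, against 6.69, 6.75, 7.02 and 6.97 with vehicle, although 1 of its 2 probe sets was not higher.

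Several signalling genes fell. VGLL3, a TEAD cofactor, fell by 0.88 ± 0.12, and with GADD45B (-0.46 ± 0.078) and FOXF2 (-0.35 ± 0.067) it made up the 3 that fell of 34 Hippo and TEAD genes, where AMOTL1 rose by 0.21 ± 0.056. LBH, a Wnt target and transcription cofactor, fell by 0.83 ± 0.098 and SP5 by 0.37 ± 0.095, out of 45 Wnt genes. In the list of IL-6 family genes (25), IL11 fell by 0.51 ± 0.11, SOCS5 by 0.51 ± 0.072 and SOCS2 by 0.48 ± 0.10, which encode a cytokine and suppressors of cytokine signalling, and IL6R rose. Of 29 ERK output genes, SPRY1, an inhibitor of receptor tyrosine kinase signalling, rose by 0.71 ± 0.10, and PHLDA1 (-0.35 ± 0.094) and PHLDA2 (-0.36 ± 0.083) fell with IL11. PHLDA1 did not pass under 11 of 21 alternatives. SGK1, a kinase induced by glucocorticoids, fell by 0.51 ± 0.067, the mRNA decay factor gene ZFP36L1 by 0.43 ± 0.11 and IER2 by 0.24 ± 0.056, while the related decay factor gene ZFP36 rose by 0.36 ± 0.059 and KLF13 by 0.26 ± 0.065. The insulin signalling adaptor gene GRB10 fell by 0.40 ± 0.087.

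Among receptors for bradykinin, complement and proteases (27 genes), BDKRB2, the constitutive bradykinin receptor gene, rose by 0.76 ± 0.16 and C5AR1 by 0.44 ± 0.12, and F2R, the thrombin receptor gene, fell by 0.72 ± 0.13. The 2 probe sets of F2R disagreed. In NF-kB and TNF receptor signalling (37 genes), NFKBIZ, a nuclear I kappa B protein, rose by 0.56 ± 0.10 and TNFRSF1A by 0.22 ± 0.061, and TNFAIP8 (-0.52 ± 0.095) and TNFRSF12A (-0.33 ± 0.078) fell. Of 35 chemokines and cytokines, CCL20 rose by 0.49 ± 0.096 beside CXCL16. BCL2A1, an antiapoptotic BCL2 relative, fell by 0.73 ± 0.13 at a low level (5.35 ± 0.15 with GSI and 6.08 ± 0.45 with vehicle, SD), and CASP9 rose by 0.26 ± 0.069 and DAPK1 by 0.41 ± 0.11, out of 34 apoptosis regulators, and neither of these rises passed with median centring. Of 28 neuroendocrine and granule genes, NPTX1, a pentraxin of synapses, fell by 0.95 ± 0.096, TYRP1 by 0.93 ± 0.11 at a low level and the granule chaperone gene SCG5 by 0.55 ± 0.10, and DDC, aromatic amino acid decarboxylase, rose by 0.68 ± 0.12 with its other probe set not higher. RNF182, a ubiquitin ligase gene, fell by 0.99 ± 0.10 (7.38 ± 0.042 with GSI and 8.37 ± 0.097 with vehicle, SD), the 1 of 37 proteasome and ligase genes past the threshold.

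A minority of airway secretion genes rose. Of 33 goblet and club cell secretory genes, 5 rose and none fell (15.2%, against 1.32% over all genes). BPIFA1, a secreted antimicrobial protein of the airway surface, had 8.26, 8.75, 8.62 and 8.69 with GSI, against 7.05, 7.05, 7.25 and 7.47 with vehicle. The lowest GSI array was 0.79 above the highest vehicle array, and BPIFA1 rose by 1.38 ± 0.10 (adjusted p = 3.12e-11, 2.6 times vehicle). FCGBP, a mucus protein, had 10.77, 10.82, 10.90 and 11.14 with GSI, against 9.84, 9.86, 10.03 and 9.98 with vehicle, a rise of 0.98 ± 0.10. AGR2, the disulfide isomerase needed for mucin folding, was already among the most abundant transcripts and had 13.70, 13.77, 13.77 and 13.77 with GSI, against 13.06, 13.11, 13.04 and 13.03 with vehicle. It rose by 0.69 ± 0.073 (adjusted p = 1.18e-07). BPIFB1, a relative of BPIFA1, rose by 0.35 ± 0.080 and the gel-forming mucin gene MUC5AC by 0.30 ± 0.081 with 3 of 4 probe sets higher. MUC5AC no longer passed whichever 1 array was left out. The other airway mucin gene, MUC5B, differed by 0.43 ± 0.14 (adjusted p = 0.12) and MUC1 by 0.35 ± 0.12, and neither passed. Of 25 mucin glycosylation enzymes, the sialyltransferase genes ST3GAL1 and ST6GALNAC1 rose by 0.46 ± 0.069 and 0.33 ± 0.091, the second of which passed under none of 3 other scalings.

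The longer alveolar type II list (19 genes) had 3 members higher and none lower, SLPI, CEBPA (0.31 ± 0.068), a transcription factor of lung epithelium, and LPCAT1 (0.24 ± 0.067), an enzyme of surfactant lipid, and the median member differed by 0.065. Of 29 lung lineage factors, SOX4 fell by 0.38 ± 0.093 with 6 of 6 probe sets lower and FOXF2 also fell. Vesicle traffic genes rose in 4 of 39 and fell in none. RAB37, a RAB GTPase of secretory granules, rose by 0.78 ± 0.13, RAB26 by 0.63 ± 0.081, VAMP8, a SNARE of mucin and granule exocytosis, by 0.42 ± 0.086 and the vesicle priming gene UNC13B by 0.34 ± 0.065.

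Liver and gut genes were the list with the most rises. Of 33 genes of enterohepatic transport and the TM4SF family, 6 rose and none fell (18.2%), with a median of 0.088. TM4SF20, a membrane protein of the TM4SF family, had 8.48, 8.87, 8.67 and 8.91 with GSI, against 7.08, 7.39, 7.24 and 7.30 with vehicle. It was the largest rise of the comparison, 1.48 ± 0.10 (2.79 times vehicle), with no overlap. Its relatives TM4SF5 and TM4SF4 rose by 0.61 ± 0.097 and 0.55 ± 0.088. SLC51B, a subunit of the basolateral bile acid exporter, had 9.35, 9.37, 9.44 and 9.18 with GSI, against 8.58, 8.49, 8.77 and 8.64 with vehicle, and the apical exporters ABCC2 and ABCG2 rose by 0.39 ± 0.076 and 0.31 ± 0.072. ABCB11, the bile salt export pump, differed by -0.24 ± 0.089 and did not pass. Of 41 plasma proteins 2 rose. RBP4, the plasma carrier of retinol, had 11.49, 11.48, 11.42 and 11.52 with GSI, against 10.16, 10.25, 10.22 and 10.18 with vehicle. GSI arrays spanned 0.10, vehicle arrays 0.091, and the gap between the groups was 1.17, with a rise of 1.28 ± 0.14 (2.42 times vehicle). FGG, the fibrinogen gamma chain, rose by 0.53 ± 0.11. PLAAT4, a retinoid-induced phospholipase gene, rose by 0.51 ± 0.13, and with RBP4 made up the 2 of 27 retinoid genes that rose.

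Some lipid genes rose in each of several lists, and most members did not pass. In lipid droplets and triglyceride synthesis, 4 of 36 rose and none fell. CIDEC, which fuses lipid droplets, had 8.79, 8.93, 9.04 and 9.01 with GSI, against 7.90, 8.06, 8.17 and 8.04 with vehicle. It rose by 0.90 ± 0.099 (adjusted p = 2.2e-07) without overlap. PLIN2, the coat protein of droplets, rose by 0.47 ± 0.12, the phosphatidate phosphatase gene LPIN1 by 0.47 ± 0.067 and CIDEB by 0.31 ± 0.084 with overlapping arrays. PLIN2 no longer passed whichever 1 array was left out. Of 16 cholesterol synthesis genes 4 rose (25.0%), and all 16 differed by more than 0, with a median of 0.19. TM7SF2 rose by 0.46 ± 0.089, DHCR7, which makes cholesterol from its last precursor, by 0.34 ± 0.063, the isomerase gene IDI1 by 0.31 ± 0.073 with 2 of 4 probe sets higher, and lanosterol synthase, LSS, by 0.28 ± 0.063. MSMO1 differed by 0.32 ± 0.094 and did not pass.

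Of 22 genes of SREBP regulation and sterol transport, a list that also holds the interferon gene RSAD2, 3 rose and 1 fell. INSIG1, which retains SREBPs in the ER and is itself an SREBP target, had 9.65, 9.79, 9.76 and 9.76 with GSI, against 9.06, 9.20, 9.14 and 9.19 with vehicle. It rose by 0.59 ± 0.077 (adjusted p = 5.22e-06) with 3 of 3 probe sets higher. SREBF2, which encodes the SREBP of cholesterol synthesis, had 9.37, 9.37, 9.44 and 9.46 with GSI, against 9.01, 9.17, 9.09 and 9.04 with vehicle, a rise of 0.33 ± 0.072, and SREBF1 rose by 0.29 ± 0.075. SREBF1 did not pass under 8 of 21 alternatives, with values down to 0.16, while SREBF2 passed under all 21. ABCG1, a cholesterol exporter induced by oxysterols, fell by 0.42 ± 0.10 with 4 of 4 probe sets lower. The 250 bases before the SREBF2 start (chr22:41832855-41833104, plus strand, GRCh38.p14, RefSeq) are shown because SREBP-2 is known to act on its own gene through a sterol regulatory element next to a CCAAT box. Capitals mark TCACNCCAC, starting 133 bases before the start, and CCAAT read on the opposite strand, starting 106 bases before it.
SREBF2: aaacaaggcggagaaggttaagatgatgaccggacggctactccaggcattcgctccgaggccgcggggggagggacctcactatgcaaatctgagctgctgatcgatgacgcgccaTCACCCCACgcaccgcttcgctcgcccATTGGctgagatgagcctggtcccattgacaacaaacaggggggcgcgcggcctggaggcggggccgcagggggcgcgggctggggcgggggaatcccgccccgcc
On both strands TCACNCCAC was found in 0.883% of all promoters of the table and in 1.14% of those of tested genes. Of the 7 cholesterol and SREBP genes that rose, SREBF2 itself was the 1 with it. CCAAT was found in 32% of all promoters, in 39.7% of those of tested genes and in 6 of the same 7, and these motifs share no letters that overlap in SREBF2.

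Fatty acid genes followed in part. FADS2, a desaturase of polyunsaturated fatty acids, rose by 0.44 ± 0.087 and the elongase gene ELOVL3 by 0.36 ± 0.083 of 20 synthesis genes, with a median of 0.13. ACOX2, a peroxisomal oxidase of bile acid and branched-chain fatty acid breakdown, rose by 0.44 ± 0.064, and CPT1A differed by 0.24 ± 0.074 without passing. SMPD1, acid sphingomyelinase, rose by 0.33 ± 0.074 with 2 of 4 probe sets higher.

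A few ER and redox genes showed small rises. Of 36 ER chaperone and ER-associated degradation genes 3 rose and none fell, and 29 differed by more than 0 (median 0.15). CRELD2, a secreted ER stress protein, had 10.81, 10.96, 10.92 and 10.85 with GSI, against 10.30, 10.39, 10.46 and 10.41 with vehicle. It rose by 0.50 ± 0.061 (adjusted p = 1.93e-06), SDF2L1 by 0.39 ± 0.087 and MANF by 0.31 ± 0.058, while HYOU1 was just outside the threshold at 0.38 ± 0.11 (adjusted p = 0.0518). PCK2 and TRIB3 rose by 0.32 ± 0.065 and 0.24 ± 0.063 of 34 ATF4 genes, and no tRNA synthetase (17) or protein export gene (34) passed. TRIB3 did not pass under 11 of 21 alternatives, among them the fit of the comparison's own arrays alone. Of 40 NRF2 and redox genes 4 rose and 1 fell. The fatty acid hydroxylase genes CYP4F3 and CYP4F11 rose by 0.69 ± 0.12 and 0.53 ± 0.093 and sulfiredoxin, SRXN1, by 0.25 ± 0.065, while heme oxygenase, HMOX1, fell by 0.52 ± 0.12. In the aryl hydrocarbon and cytochrome P450 list (29 genes), AHRR, the repressor of the aryl hydrocarbon receptor, rose by 0.44 ± 0.092, SULT1A1 by 0.40 ± 0.072, and CYP24A1, the vitamin D 24-hydroxylase, fell by 0.76 ± 0.12 with 12.46, 12.36, 12.62 and 12.97 with GSI, against 13.14, 13.58, 13.25 and 13.47 with vehicle.

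Transport and metabolic genes rose in small numbers. Of 41 channels and pumps 4 rose and none fell: the potassium channel gene KCNK5 (0.52 ± 0.087), the water and glycerol channel gene AQP3 (0.42 ± 0.081), the sodium channel subunit gene SCNN1A (0.36 ± 0.096) and the calcium pump gene ATP2B4 (0.29 ± 0.060). ATP8B4, a phospholipid flippase, rose by 0.78 ± 0.095 and ABCB6 by 0.40 ± 0.064, while the scramblase ANO6 fell by 0.31 ± 0.081. Of 37 solute carriers, the glutamate transporter gene SLC1A3 rose by 0.49 ± 0.081, SLC67A1 by 0.43 ± 0.077 and the arginine transporter gene SLC7A2 by 0.34 ± 0.061, and the glucose transporter gene SLC2A3 fell by 0.36 ± 0.066. ASS1 and ASL, the consecutive enzymes that make arginine from citrulline, rose by 0.48 ± 0.052 and 0.39 ± 0.075. ALDOC and FAM162A rose by 0.39 ± 0.069 and 0.27 ± 0.069 and EPAS1, the HIF-2 alpha gene, fell by 0.49 ± 0.071, in a list of 38 glycolysis and hypoxia genes. TXNIP, the thioredoxin-binding protein that glucose induces, rose by 0.56 ± 0.093. The lysosomal hydrolase genes NEU1 and HEXA rose by 0.28 ± 0.071 and 0.20 ± 0.055, and with CTSD made up 3 of 39, of which CTSD alone passed with median centring.

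**Figure D4:**
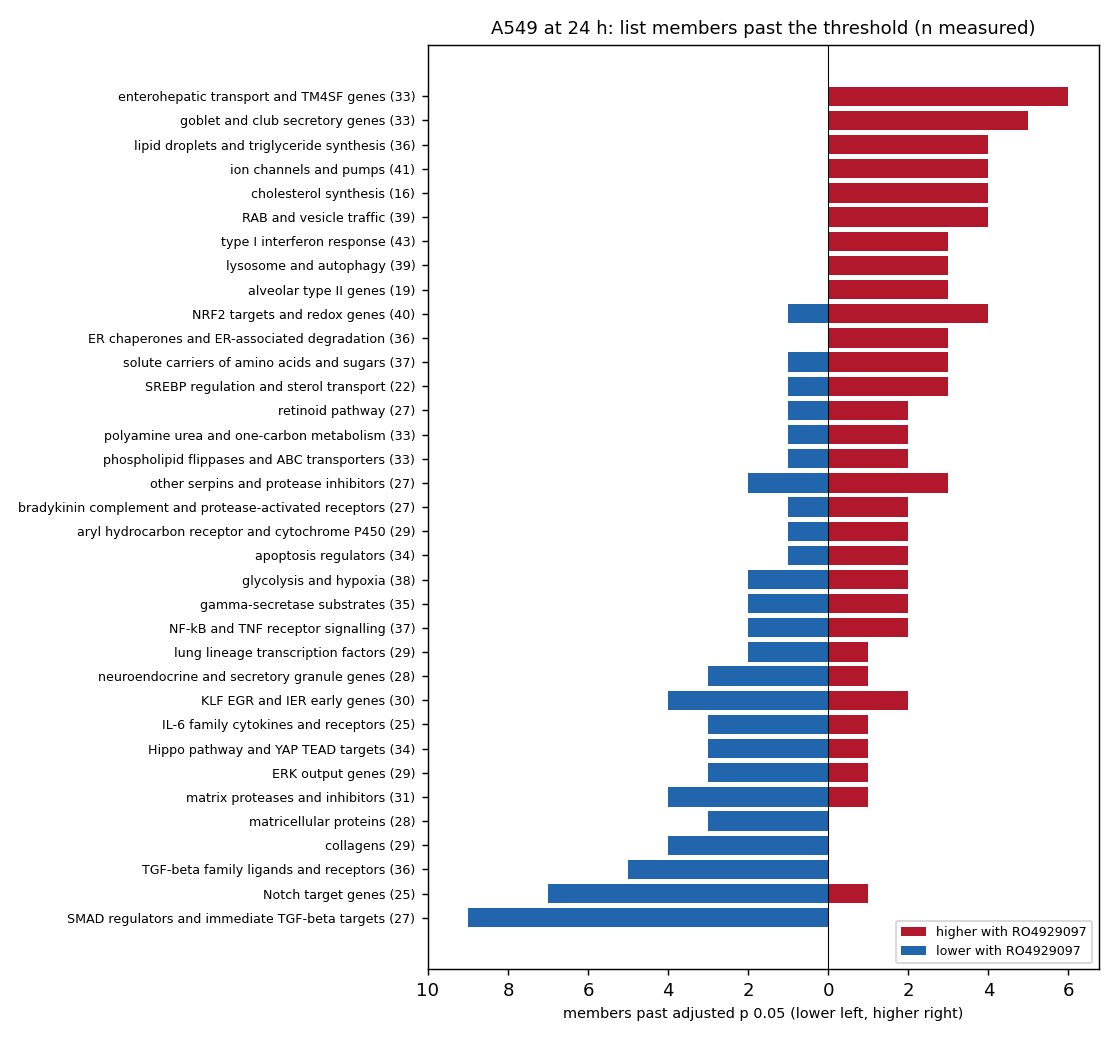
For the 35 lists with at least 3 members past the threshold, bars to the right count members that rose with GSI (RO4929097) and bars to the left members that fell in A549 at 24 h, with the number measured in brackets. SMAD regulators and immediate TGF-beta targets had 9 lower and none higher of 27, and enterohepatic transport and TM4SF genes 6 higher and none lower of 33.

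Cell cycle genes passed in 2 cases although most had differences below 0, and in 8 after quantile normalization of all arrays and 7 with the 8 arrays of the comparison alone. The share was 2.0% of S phase and 1.85% of G2 and mitosis genes, near the 2.21% of all genes (0.885% lower). Over all genes, 636 and 620 passed under those alternatives. The median difference of all genes was 0.0070. Of 50 S phase genes 43 differed by less than 0, with a median of -0.10, and 1 passed, UHRF1, a reader of replicating methylated DNA (-0.36 ± 0.069). MCM4, of the replicative helicase, differed by -0.31 ± 0.095. Of 54 G2 and mitosis genes 46 differed by less than 0 (median -0.090) and 1 passed, the midzone kinesin gene KIF23 (-0.34 ± 0.090). None of 30 G1 regulators and none of 28 p53 targets passed. Of 43 type I interferon genes 3 rose, IFIT1 by 0.45 ± 0.12, PARP9 by 0.26 ± 0.065 and LGALS3BP by 0.24 ± 0.058, and 35 differed by more than 0 (median 0.12). None of 27 antigen presentation genes passed. Of 36 ribosome biogenesis genes, RCL1 and DDX10 fell by 0.25 ± 0.066 and 0.23 ± 0.061, and none of 38 ribosomal protein genes or 45 oxidative phosphorylation genes passed. In 15 of the 84 lists, among them the ciliated, fibroblast, leukocyte and endothelial marker lists, no member passed. The remaining lists had 1 or 2 members past the threshold, such as the heat shock genes CRYAB (-0.50 ± 0.10) and HSPA2 (-0.49 ± 0.092), the histone genes H4C8 (-0.46 ± 0.12) and H2BC21 (0.36 ± 0.087), the axon guidance genes DPYSL3 (-0.30 ± 0.059) and PLXND1 (-0.25 ± 0.058), MT1E (-0.31 ± 0.084), PTGER2 (-0.43 ± 0.11), BATF3 (-0.28 ± 0.067) and FGFBP1 (0.49 ± 0.11).

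The lists hold 173 of the 437 called genes, and 264 lie in none of them. The largest falls outside the lists were C3orf80 with 4.97, 5.48, 4.93 and 4.75 with GSI, against 6.12, 6.75, 6.75 and 6.72 with vehicle, a gene of low level, and ACKR3, a scavenging receptor for CXCL12 (-0.81 ± 0.11, 2 of 3 probe sets lower), COL21A1 (-0.80 ± 0.11) and PID1 (-0.80 ± 0.085). Then came the actin regulators CORO2B (-0.73 ± 0.11) and FHOD3 (-0.73 ± 0.087), DCDC2 (-0.72 ± 0.11), IFFO2 (-0.67 ± 0.075), the relaxin family hormone gene INSL4 (-0.65 ± 0.10), CYP27C1 (-0.65 ± 0.11) and SLCO5A1 (-0.64 ± 0.16). Rises outside the lists were led by SELENBP1, a selenium-binding methanethiol oxidase (0.71 ± 0.089), and HGD, an enzyme of tyrosine breakdown (0.70 ± 0.15). They were followed by ZSCAN31 (0.67 ± 0.080), ANXA10, an annexin of gastric epithelium (0.65 ± 0.10), NFE2 (0.63 ± 0.14), cytidine deaminase, CDA (0.58 ± 0.087), and the asialoglycoprotein receptor subunit ASGR1 (0.57 ± 0.11). CNTNAP1 (0.56 ± 0.11), the epithelial clathrin adaptor gene AP1M2 (0.54 ± 0.066), KCNE4 (0.53 ± 0.12), USH1C (0.53 ± 0.096) and TMT1B (0.53 ± 0.078) completed the group.

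Scaling ended 14 of the calls described here, without a change of sign. With median centring C5AR1, CASP9, CIDEB, DAPK1, HEXA, IFIT1, LPCAT1, NEU1, SRXN1, ST6GALNAC1 and TNFRSF1A did not pass, with adjusted p from limma of 0.0515 (NEU1) to 0.0746 (TNFRSF1A). With quantile normalization CIDEB, HEXA, IFIT1, MUC5AC and ST6GALNAC1 did not pass over all arrays, and MT1E and PLIN2 as well within each line. HEXA, which had the most losses of the lysosomal genes, differed by 0.054 with the mean of its probe sets.

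The same treatment in H460a at 24 h, measured on other GSI and other vehicle arrays, gave 1 gene past the threshold (0.00506% of 19775). The difference of the GSI effects, A549 minus H460a, passed for 126 genes (0.637%), 113 of which were among the 437. Of the 30 genes with the largest changes in A549, 25 passed this test and none of them passed in H460a itself. Both the 437 and the 30 were picked by their A549 changes, which also enter this difference. The choice therefore favours a larger effect in A549. HES1 differed by -2.18 ± 0.13 in A549 and by -0.29 in H460a (adjusted p = 4.78e-08 for the difference), PMEPA1 by -1.74 ± 0.074 and 0.014, TNFAIP6 by -1.72 ± 0.11 and -0.0053, and TM4SF20 by 1.48 ± 0.10 and 0.29. The effects of BPIFA1 were 1.38 ± 0.10 and 0.044 and those of CIDEC 0.90 ± 0.099 and -0.029. A549 had the larger effect in each of these 6, which were among the 30 picked that way. SLC51B, BDKRB2, PPL, SNAI2 and HGD were the 5 of the 30 whose difference between lines did not pass, with H460a effects of 0.39, 0.15, 0.081, -0.39 and -0.13. Beyond the 30, HEY1 (-0.30) and HES4 (-0.19) had H460a effects of the same sign as in A549 that did not pass.

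**Figure D5:**
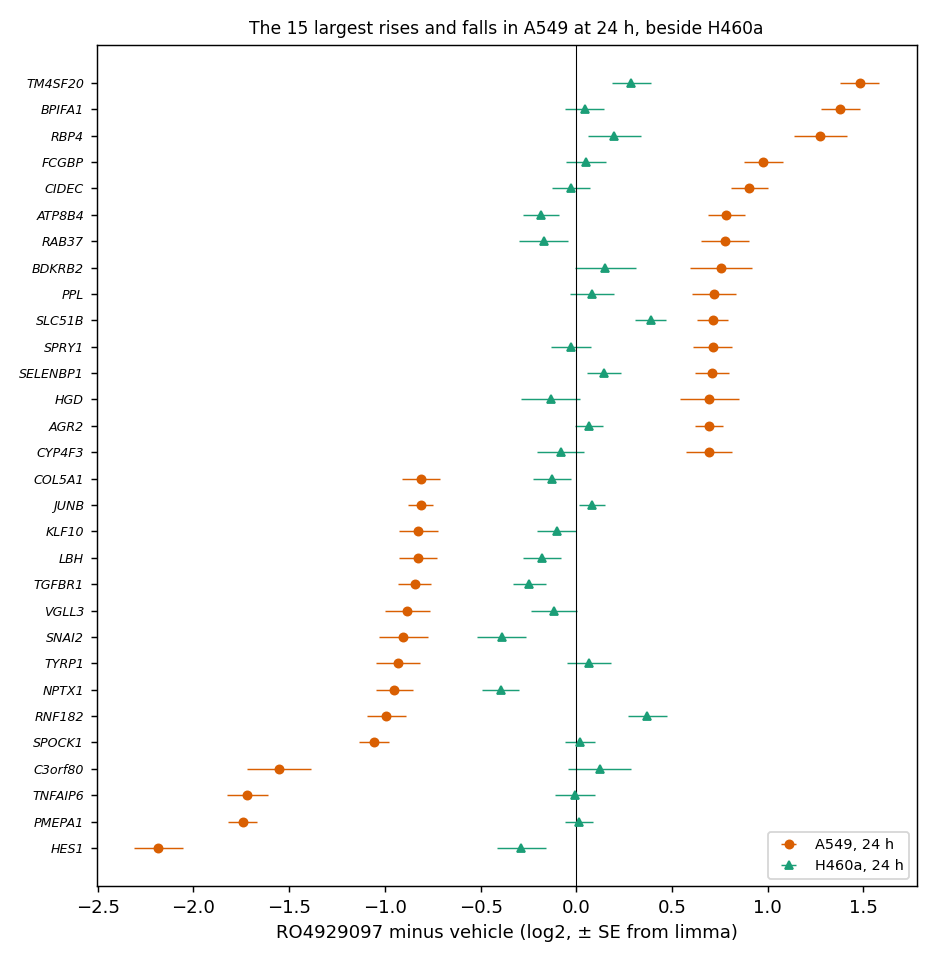
GSI (RO4929097) minus vehicle in log2 units, with the standard error from limma as bars, for the 15 largest rises and 15 largest falls of A549 at 24 h (circles) and for the same genes in H460a at 24 h (triangles). The A549 points, by which the genes were picked, run between -2.18 and 1.48, and the H460a points between -0.39 and 0.39.

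Between times in A549, the difference of the GSI effects at 24 and 6 h passed for 733 genes (3.71%), but for 25 without the 4 arrays that stand apart, which leaves 1 GSI array at 6 h, assumed to vary like the other groups. Where the effect at 6 h is quoted, the value without those arrays follows it. HES1 had -1.63 (-1.91), LBH -0.81 (-0.86), JUNB -0.71 (-0.75), SNAI2 -0.68 (-0.62), HES4 -0.46 (-0.43) and HEY1 -0.41 (-0.36) at 6 h, and none of these 6 differed between times past the threshold in either fit. PMEPA1 had -0.58 (-0.58) at 6 h and TNFAIP6 -0.27 (-0.25), smaller falls than at 24 h in both fits (adjusted p = 0.000141 for PMEPA1 and 0.000169 for TNFAIP6 without the 4 arrays). BPIFA1 had -0.13 (-0.031) and TM4SF20 0.43 (0.39) at 6 h, and RNF182 0.11 (-0.15), and these 3 also differed between times in both fits. ID2 had 0.62 (0.45) at 6 h. For CIDEC, FCGBP, RBP4 and C3orf80 the difference between times passed with all arrays and not without the 4. The 2 times have their own vehicle arrays.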

How the data were processed

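RNA of 32 samples was hybridised to Affymetrix arrays. The authors deposited linear intensities for 54675 probe sets, and the submitters' processing notes name RMA, without a version. The design text names H460 and a compound RP4929097-001-003 where the sample labels, followed here, have H460a and RO4929097. A sample note on embryos does not match the rest of the labels and was set aside. Values were log2-transformed with no further scaling. Control (62), several-symbol (1801) and unnamed (11721) probe sets were left out, and each of 19775 genes was read from its probe set of highest mean. Group means of all 8 groups were fitted with limma 3.58.1 in R 4.3.3 (lmFit, eBayes, 31.89 total degrees of freedom), with Benjamini-Hochberg adjustment over all genes. Motifs were searched in RefSeq promoters (GRCh38.p14).

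The comparison and the 84 lists (2295 genes, from general knowledge) were chosen with earlier results of these data known. Named genes are the 15 largest rises and falls without overlapping arrays, up to 6 called and 1 uncalled member of each list, fixed Notch and gamma-secretase genes, CDH1 and VIM, up to 5 genes for each difference of effects, and the next 10 in each direction outside the lists; 28 genes of the closing groups, BCL6 and SMAD3 were added after their values were seen. The fit was tested on simulated data. Alternatives covered arrays, scaling, probe sets, the variance model, a replicate block, log2 of the value plus 32, and each array left out. Figures were drawn with matplotlib 3.10.9.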

Additional observations from a re-analysis of the deposited data

Results flagged for a closer look

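In groups of 4 arrays, Dixon's criterion marks an array whose gap to its nearest neighbour takes up most of the range of the group (past its critical value), and chance alone marks about 1 group in 20. Among 630 groups (315 named genes with GSI and with vehicle) 39 were marked. Levels are log2 intensities, each followed by that of the nearest array. The lowest GSI array stood apart for AGR2 (13.7, nearest 13.77), CERS2 (12.35, nearest 12.45), FHOD3 (7.14, nearest 7.4), GNG2 (7.26, nearest 7.33), HEXA (11.24, nearest 11.41) and MANF (11.17, nearest 11.23). So did that of PID1 (6.85, nearest 6.97), SCNN1A (10.06, nearest 10.2), SNAI2 (5.35, nearest 5.54) and TGFB1I1 (10.27, nearest 10.34). The highest GSI array stood apart for CDA (8.66, nearest 8.41), FGL1 (10.73, nearest 10.58), LMNA (11.66, nearest 11.56) and TRIB3 (10.85, nearest 10.76). The lowest vehicle array stood apart for BATF3 (8.15, nearest 8.31), C3orf80 (6.12, nearest 6.72), FERMT1 (9.81, nearest 9.89), FHOD3 (7.87, nearest 8.12), KCNE4 (8.83, nearest 8.99) and KCNN4 (9.41, nearest 9.58). So did that of MUC5B (8.51, nearest 8.82), NCSTN (10.01, nearest 10.24), RDX (12.59, nearest 12.69), SPOCK1 (9.46, nearest 9.72) and USH1C (6.88, nearest 7.06). The highest vehicle array stood apart for AGMAT (8.78, nearest 8.46), CORO2B (5.99, nearest 5.53), FGL1 (10.3, nearest 10.21), ID2 (11.83, nearest 11.67), JAG2 (8.4, nearest 8.3) and LBH (10.26, nearest 10.1). So did that of MT1H (12.71, nearest 12.65), PLAU (10.15, nearest 10.1), PLEK2 (9.22, nearest 9.07), PLXND1 (9.77, nearest 9.6), SELENBP1 (7.8, nearest 7.57) and SERPINF1 (7.74, nearest 7.59). So did that of SULT1A1 (9.67, nearest 9.59) and TFPI2 (12.42, nearest 12.33). Of genes named for the size of their change, AGR2, C3orf80, LBH, SELENBP1, SNAI2 and SPOCK1 are among these.

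The GSI effect at 24 h differed between the lines past the threshold in 25 of the genes with the largest changes, by limma's test of the difference. These genes were picked by their A549 changes, which are part of the difference, so a larger effect in A549 is favoured. Each gene is given with the difference of effects, A549 minus H460a, and in brackets the effects in A549 and in H460a. Below 0 these were HES1 -1.89 (-2.18 and -0.29, adjusted p = 4.78e-08), PMEPA1 -1.76 (-1.74 and 0.01, adjusted p = 4.84e-13), TNFAIP6 -1.71 (-1.72 and -0.01, adjusted p = 6.74e-09) and C3orf80 -1.67 (-1.55 and 0.12, adjusted p = 9.43e-05). They were followed by RNF182 -1.36 (-0.99 and 0.37, adjusted p = 2.44e-07), SPOCK1 -1.08 (-1.06 and 0.02, adjusted p = 2.05e-07), TYRP1 -1.0 (-0.93 and 0.07, adjusted p = 0.000636) and JUNB -0.90 (-0.81 and 0.08, adjusted p = 2.44e-07). Smaller differences were those of VGLL3 -0.77 (-0.88 and -0.12, adjusted p = 0.0217), KLF10 -0.72 (-0.83 and -0.10, adjusted p = 0.00961), COL5A1 -0.68 (-0.81 and -0.13, adjusted p = 0.012) and LBH -0.65 (-0.83 and -0.18, adjusted p = 0.0168). The list below 0 ended with TGFBR1 -0.60 (-0.84 and -0.25, adjusted p = 0.0116) and NPTX1 -0.56 (-0.95 and -0.39, adjusted p = 0.045). Above 0 these were BPIFA1 1.33 (1.38 and 0.04, adjusted p = 4.24e-07), TM4SF20 1.19 (1.48 and 0.29, adjusted p = 4.46e-06), RBP4 1.08 (1.28 and 0.20, adjusted p = 0.00296) and ATP8B4 0.97 (0.78 and -0.18, adjusted p = 7.92e-05). After them came RAB37 0.95 (0.78 and -0.17, adjusted p = 0.00475), FCGBP 0.93 (0.98 and 0.05, adjusted p = 0.000406), CIDEC 0.93 (0.90 and -0.03, adjusted p = 0.000205) and CYP4F3 0.77 (0.69 and -0.08, adjusted p = 0.0221). Further down were SPRY1 0.74 (0.71 and -0.03, adjusted p = 0.00909), AGR2 0.63 (0.69 and 0.07, adjusted p = 0.000731) and SELENBP1 0.56 (0.71 and 0.15, adjusted p = 0.0243).

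In A549 the GSI effect at 24 h minus that at 6 h passed the threshold for 10 genes named for it. They were picked among genes called at 24 h, which favours a larger effect at that time. In brackets are the effects at 24 and at 6 h, then the difference without the 4 arrays that stand apart. More negative at 24 h were TNFAIP6 -1.45 (-1.72 and -0.27, adjusted p = 2.18e-07, without them -1.47, adjusted p = 0.000169) and C3orf80 -1.27 (-1.55 and -0.28, adjusted p = 0.0034, without them -1.12, adjusted p = 0.21). So were those of ID2 -1.21 (-0.60 and 0.62, adjusted p = 1.22e-07, without them -1.05, adjusted p = 0.000592) and PMEPA1 -1.16 (-1.74 and -0.58, adjusted p = 3.77e-08, without them -1.16, adjusted p = 0.000141). The last below 0 was RNF182 -1.10 (-0.99 and 0.11, adjusted p = 2.46e-05, without them -0.84, adjusted p = 0.00432). More positive at 24 h were BPIFA1 1.51 (1.38 and -0.13, adjusted p = 7.73e-08, without them 1.41, adjusted p = 0.000592) and RBP4 1.18 (1.28 and 0.10, adjusted p = 0.00114, without them 1.23, adjusted p = 0.0792). So were TM4SF20 1.05 (1.48 and 0.43, adjusted p = 6.56e-05, without them 1.09, adjusted p = 0.00717) and CIDEC 0.92 (0.90 and -0.02, adjusted p = 0.000366, without them 0.90, adjusted p = 0.061). The last above 0 was FCGBP 0.88 (0.98 and 0.10, adjusted p = 0.00114, without them 0.90, adjusted p = 0.0592). Of these 10 differences 6 also passed without the 4 arrays.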

How the results depend on the processing

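Precision is limited by having 4 arrays a group. The count of 437 genes in A549 at 24 h became 672 when the 4 arrays that stand apart were dropped, 1169 with array weights and 64 when a size of 0.58 or more was also required, and 293 (without GSI array 3) to 388 (without GSI array 1) with 1 array left out. The other planned settings gave 356 to 636 genes, with 53% to 63.4% of them higher against 60.0%, and the planned settings shifted the median of all genes by -0.013 (median centring) to 0.0047. For the difference between lines (126 genes) array weights gave 283, a difference of at least 0.58 gave 65, and leaving out 1 array gave 72 to 114. The difference between times (733 genes) depended most on the setting: 25 without the 4 arrays, 456 under quantile normalization of all arrays and 344 within each line, 1385 among genes at or above the median level, 409 with the mean of all probe sets, 356 with the probe set of largest interquartile range, 1852 with array weights, 154 with a difference of at least 0.58, 1106 with log2 of the value plus 32, and 201 to 645 with 1 array left out. The cause of these shifts was not tested.

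Of 222 named genes past the threshold, 127 passed under every alternative in which they were measured, the minimum size left aside (98 in all 21 and 29 in 20, being under the level filter), 20 were lost under at least 1 scaling and 76 without at least 1 array. Among those lost whichever 1 array was left out were ALDH6A1, ANO6, C5AR1, DAPK1, FGL1, MUC5AC, PLIN2 and TNFRSF1A. FAM162A, GNB4 and RDX were each lost under 10 of 21 alternatives. AMOTL1 (-0.069) and AGMAT (-0.23) changed sign with the probe set of largest interquartile range, and neither passed there. With the replicate number as a block, 356 genes passed in A549 at 24 h, 91 between lines and 237 between times. Whether arrays with the same number pair was not settled by the data. Correlations of deviations were 0.32, -0.058, 0.17 and 0.024, and 2 of 4 numbers correlated best with their own. Mean intensities of arrays 1 to 4 had the same order in both groups. They were 584.4, 595.0, 597.3 and 596.2 with vehicle and 585.2, 594.3, 602.1 and 596.2 with GSI. The block stays an alternative, under which 36 of the 222 named calls were lost.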

Other observations

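Among the called genes outside the lists, some share a function and were grouped after their values were seen, so they are given as values only. Enzymes of amino acid breakdown were higher with GSI: AGMAT at 0.51 ± 0.11 (2 of 3 probe sets higher), ALDH6A1, of valine breakdown, at 0.44 ± 0.12, HOGA1, of hydroxyproline breakdown, at 0.41 ± 0.096, BCKDHB, of the branched-chain complex, at 0.38 ± 0.090, and KYAT1, of kynurenine metabolism, at 0.26 ± 0.067. With HGD these make 6 genes, which lay between -0.13 and 0.15 in H460a at 24 h. None of them passed there, where 1 of all 19775 genes (0.00506%) did, so this does not set the 6 apart. Peroxisomal and fatty acid genes that were higher included SLC27A2, an acyl-CoA synthetase, at 0.43 ± 0.080, PEX11A, which divides peroxisomes, at 0.35 ± 0.082, the epoxide hydrolase gene EPHX2 at 0.26 ± 0.069 and ECH1 at 0.23 ± 0.058. Glycogen genes were PPP1R3C, a glycogen-targeting phosphatase subunit, at 0.43 ± 0.059 (1 of 2 probe sets higher), GYG2, a glycogenin, at 0.40 ± 0.068 and GYS1, glycogen synthase, at 0.24 ± 0.064. Secreted plasma proteins beyond the list were ANG at 0.39 ± 0.065, FGL1 at 0.39 ± 0.11, C4BPA at 0.36 ± 0.089 and CFD, complement factor D, at 0.36 ± 0.072. With median centring ALDH6A1, EPHX2, FGL1 and GYS1 did not pass, nor did ALDH6A1, ECH1 and KYAT1 with quantile normalization within each line.

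Lower with GSI outside the lists were genes of actin and of G protein signalling, also grouped after their values were seen. PLEK2, a pleckstrin relative, was at -0.60 ± 0.076, RAI14 at -0.42 ± 0.093, TGFB1I1, the focal adhesion protein Hic-5, at -0.37 ± 0.073, SMTN, smoothelin, at -0.34 ± 0.078, MICAL2 at -0.32 ± 0.077, the unconventional myosin gene MYO10 at -0.30 ± 0.077 and RDX, radixin, at -0.28 ± 0.073. The G protein subunit genes GNG11, GNG2 and GNB4 were at -0.47 ± 0.10, -0.43 ± 0.10 and -0.29 ± 0.075. Adenylate cyclase 7, ADCY7, was at -0.44 ± 0.097, but at -0.017 with the probe set of largest interquartile range. The calcium release channel gene ITPR1 was at -0.42 ± 0.11. In all 12 of these the 4 GSI arrays lay below the 4 vehicle arrays. The same held for 169 of all 175 genes called lower and for 5.14% of all genes tested, so it does not set these 12 apart.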
